A study of Mus musculus with 12 samples.

Results

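The genes described here take up, store and export iron, sense iron in the cell, or bind zinc and copper as metallothioneins. They were chosen by symbol: Tfrc, Slc11a2, Slc40a1, Fth1, Ftl1, Aco1, Ireb2, Mt1, Mt2 and Mt3, which are 10 genes of the 19505 with a named probe. Of these, 7 were above background on all 12 arrays, Tfrc and Mt3 on some of the arrays and Slc40a1 on none. Each was read by a single probe, here meaning a transcript cluster of the Clarion S mouse array. The cells were cultured S100β-v-erbB/p53-/- TSC1 cells of mouse strain FVB-NJ, and every group shared this genotype: the v-erbB oncogene driven by the S100β promoter, on a background that lacks p53. The 4 groups, each of 3 arrays, were hypoxia with BFA (brefeldin A, which blocks transport from the endoplasmic reticulum to the Golgi), hypoxia with EHT-1864 (an inhibitor of Rac GTPases), hypoxia with the solvent DMSO, and normoxia with DMSO. Exposure lasted 16 h. EHT-1864 was used at 1 µM, whereas for BFA the treatment protocol states 1 µM but the title of the series 0.1 µM, so its dose remains unsettled. The labels name no oxygen level, do not say whether the cultures descend from a single clone, and give no compound group in normoxia.

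Cells take up iron mainly as transferrin, which binds the transferrin receptor at the surface and is carried into endosomes, where the iron is released and moved into the cytosol. Iron that is not used is stored inside ferritin, a shell built of heavy and light chains, and leaves the cell through ferroportin. The iron regulatory proteins bind iron-responsive elements in messenger RNAs when iron is low, which stabilises the receptor's RNA and blocks translation of the ferritin chains, so that a level of ferritin RNA is not a level of ferritin protein. Metallothioneins are small cysteine-rich proteins that bind zinc and copper. The genes Mt1 and Mt2 are switched on by the zinc-sensing factor MTF1, by glucocorticoids and by several kinds of stress.

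The values are log2 signals, and a difference of 1 on this scale is a doubling. "±" is the standard error of the limma fit after a log2 change and the SD of 3 arrays after a group mean. A change was called at a limma p, adjusted over all 22206 probes of the comparison, below 0.05. Each array's floor was the 95th percentile of its neg control probes. It lay between 6.37 and 6.65 with BFA, between 5.88 and 6.15 with EHT-1864, between 5.60 and 5.64 in hypoxia DMSO and between 5.59 and 5.64 in normoxia DMSO. From 63.2% to 67.9% of probes were below it with BFA, 55.9% to 60.0% with EHT-1864, 51.6% to 51.9% in hypoxia DMSO and 51.9% to 52.3% in normoxia DMSO, so dim genes were least readable with BFA. Hybridization controls, added to the mix and not part of the cells' RNA, averaged 10.8 to 11.1 with BFA, 10.2 to 10.3 with EHT-1864, 9.69 to 9.82 in hypoxia DMSO and 9.81 to 9.92 in normoxia DMSO, and the part of these shifts in the results was not tested. All 6 measured markers of the oligodendrocyte lineage and glioma progenitors were above the floor on every array. Their summed log2 level was 47.9 to 48.3 with BFA, 55.0 to 55.9 with EHT-1864, 62.6 to 62.8 in hypoxia DMSO and 62.1 to 63.0 in normoxia DMSO, a shift whose part in the results was not tested either. None of the 6 measured microglial and 5 endothelial markers was above the floor on any array. Of the astrocyte markers, 1 of 6 was above it with BFA, with EHT-1864 and in normoxia DMSO, and 2 were in hypoxia DMSO. In each group 1 of 5 fibroblast and pericyte markers and 1 of 3 measured erythroid markers was above it, as was 1 of 5 neuronal markers with BFA and 2 on at least some arrays of the other groups.

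Against normoxia DMSO, hypoxia DMSO raised Mt2 and Mt1 and lowered Tfrc, which were 3 of the 10 genes, while 2.67% of all probes were called in that comparison, 2.11% higher and 0.563% lower. Mt3, the ferritin chains Fth1 and Ftl1, the iron regulatory proteins Aco1 and Ireb2, Slc11a2 and Slc40a1 did not pass. Within hypoxia, both compounds lowered Tfrc, Mt1 and Mt2 relative to DMSO, and they differed in Slc11a2, which rose with BFA and fell with EHT-1864. With BFA 6 of the 10 genes were called against hypoxia DMSO, 1 higher and 5 lower, while 50.7% of all probes were called, 26.1% higher and 24.6% lower. EHT-1864 also had 6 called against hypoxia DMSO, 1 higher and 5 lower, while 30.5% of all probes were called, 13.0% higher and 17.4% lower. These shares show how much of the array moved, so a count of called genes under either compound says little by itself, and the sizes and directions below carry the description. The comparisons share the hypoxia DMSO arrays, so each is given with its own values and they are not independent of each other.

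**Figure D1:**
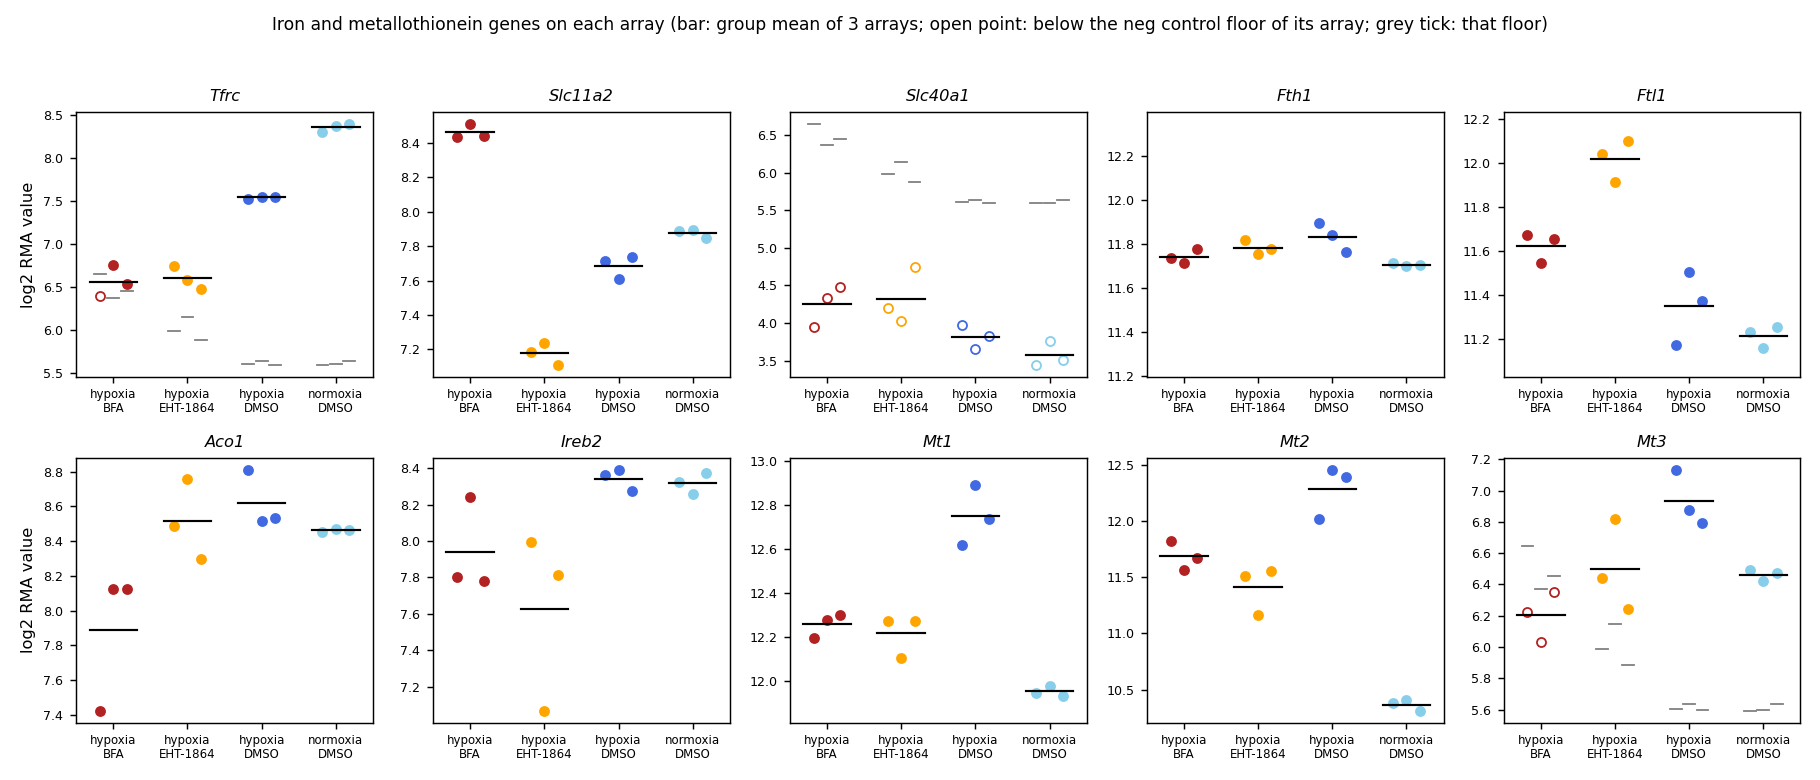
Log2 signal of the 10 genes on each of the 12 arrays, 1 panel per gene, each with its own scale; points are single arrays and bars the means of 3. Grey ticks, in the panels that reach them, are the floors of the arrays, and open points are below their floor. Tfrc is lowest with both compounds, Mt2 is highest in hypoxia DMSO and lowest in normoxia DMSO, and every Slc40a1 point lies below its floor.

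Tfrc encodes the transferrin receptor, the entry point for transferrin-bound iron. Its log2 values were 6.40, 6.76 and 6.53 with BFA, 6.74, 6.58 and 6.47 with EHT-1864, 7.53, 7.55 and 7.55 in hypoxia DMSO, and 8.30, 8.37 and 8.39 in normoxia DMSO. Every normoxia DMSO array lay above every hypoxia DMSO array, and every hypoxia DMSO array lay above all arrays of both compounds, which overlapped each other. Hypoxia DMSO lowered Tfrc by a log2 change of -0.82 ± 0.12 relative to normoxia DMSO (1.76-fold lower, limma adjusted p = 0.00246). As the arrays read whole cultures, fewer cells of a type and less RNA per cell cannot be told apart. Within hypoxia the changes were -0.98 ± 0.12 with BFA (1.97-fold lower, limma adjusted p = 2.95e-05) and -0.94 ± 0.12 with EHT-1864 (1.92-fold lower, limma adjusted p = 0.000113), both against DMSO. Over the alternatives these changes ranged from -1.08 to -0.65 with BFA and from -1.01 to -0.71 with EHT-1864. Set against normoxia DMSO, Tfrc was 3.47-fold lower with BFA (limma adjusted p = 1.27e-07) and 3.39-fold lower with EHT-1864 (limma adjusted p = 1.04e-06). The compounds differed by -0.036 (BFA minus EHT-1864, 95% interval -0.30 to 0.23, limma adjusted p = 0.851). With BFA only 2 of 3 arrays were above their floor for Tfrc, so the BFA level stands close to the limit of what the array reads. The Tfrc folds with BFA, and the difference between the compounds, therefore have no reliable size.

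The letters ACGTG or GCGTG form the core of the hypoxia response element, the site that the hypoxia-inducible factors bind. In RefSeq's promoter windows of build GRCm38.p6, which run from 250 bases before to 50 after an annotated start, Tfrc has 2 starts, and the window of each holds 3 matches on either strand. Of all 32851 windows of 300 bases, 43.8% hold at least 1 such match and 8.93% hold at least 3. The match nearest to a Tfrc start lies on the plus strand at chr16:32608882-32608910 and is printed with its core in capitals. It was picked because Tfrc was called in hypoxia DMSO against normoxia DMSO, where it fell, and whether the match bears on that fall was not tested.
Tfrc: ctcggtaggtgtACGTGcggaaggaagtg
A match is a description of the letters, not a binding site. Fth1 has 1 match in the window of the second of its 2 starts and none in the first, Ftl1 has 1, and the windows of Aco1, Ireb2 and Mt3 hold none of these letters on either strand.

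Slc11a2 encodes DMT1, the divalent metal transporter that moves ferrous iron out of the endosome into the cytosol. It had log2 values of 8.44, 8.51 and 8.44 with BFA, 7.19, 7.24 and 7.11 with EHT-1864, 7.71, 7.61 and 7.74 in hypoxia DMSO, and 7.89, 7.89 and 7.85 in normoxia DMSO. The groups formed 4 separate bands with no overlap, BFA on top, then normoxia DMSO, hypoxia DMSO and EHT-1864. The neighbouring pair of hypoxia DMSO and normoxia DMSO did not pass, at -0.19 ± 0.10 (95% interval -0.41 to 0.033, limma adjusted p = 0.411). Within hypoxia, Slc11a2 rose with BFA by 0.78 ± 0.10 against DMSO (1.71-fold, limma adjusted p = 4.79e-05), and by 0.74 to 1.09 over the alternatives. With EHT-1864 it fell, with a log2 change of -0.51 ± 0.10 against hypoxia DMSO (1.42-fold lower, limma adjusted p = 0.00259). This EHT-1864 call was the weaker of the pair: after a second quantile normalization the change was -0.29 with a limma adjusted p of 0.0504, at the edge of the threshold, and over all alternatives it ranged from 0.00026 to 0.0504. BFA stood 2.44-fold above EHT-1864 (log2 difference 1.28 ± 0.10, limma adjusted p = 8.22e-07), which was the widest gap between the compounds among the 10 genes. Tfrc, the surface receptor, fell under both compounds, while Slc11a2, the endosomal transporter, rose under BFA and fell under EHT-1864.

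Slc40a1 encodes ferroportin, the only known iron exporter of mammalian cells. Its mean log2 value was 4.26 with BFA, 4.32 with EHT-1864, 3.81 in hypoxia DMSO and 3.57 in normoxia DMSO, and all 12 arrays were below their floor, so no fold is given. The fit called BFA and EHT-1864 each against normoxia DMSO, but a difference between values below the floor is not a measured change in ferroportin. The EHT-1864 call was also lost without normoxia DMSO array 1 (limma adjusted p = 0.0582) or EHT-1864 array 3 (limma adjusted p = 0.0594). It was the single gene of the 10 that was below the floor on every array.

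Fth1 encodes the heavy chain of ferritin, which oxidises iron as it enters the shell. Its log2 values were 11.73, 11.72 and 11.78 with BFA, 11.82, 11.75 and 11.78 with EHT-1864, 11.89, 11.84 and 11.76 in hypoxia DMSO, and 11.71, 11.70 and 11.70 in normoxia DMSO. All 12 values lay between 11.70 and 11.89, the hypoxia groups overlapped each other, and normoxia DMSO lay just below them. None of the 6 comparisons passed, with limma adjusted p between 0.478 and 0.787, and the 95% intervals of the differences ran at most from -0.31 to 0.34.

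Ftl1 encodes the light chain, which helps to form the iron core. It had log2 values of 11.67, 11.55 and 11.65 with BFA, 12.04, 11.91 and 12.10 with EHT-1864, 11.17, 11.50 and 11.37 in hypoxia DMSO, and 11.23, 11.16 and 11.26 in normoxia DMSO. EHT-1864 arrays lay above every other array, BFA arrays above both DMSO groups, and the DMSO groups overlapped. Ftl1 rose with EHT-1864 by 0.67 ± 0.12 against hypoxia DMSO (1.59-fold, limma adjusted p = 0.00108). It also stood 1.74-fold above normoxia DMSO with EHT-1864 (limma adjusted p = 0.000342) and 1.33-fold above it with BFA (limma adjusted p = 0.0127). The change with BFA against hypoxia DMSO was 0.27 ± 0.12 and did not pass (limma adjusted p = 0.0688, and from 0.00379 to 0.252 over the alternatives, of which 7 of 21 called it, among them the fit without hypoxia DMSO array 2). The difference between the compounds, -0.39 ± 0.12 for BFA minus EHT-1864, passed here (limma adjusted p = 0.0194), and after a second quantile normalization it was -0.18 with a limma adjusted p of 0.255, in a range of 0.000157 to 0.255 over the alternatives. Leaving out EHT-1864 array 1 (limma adjusted p = 0.0553) or array 3 (limma adjusted p = 0.0688) also ended that call. Hypoxia DMSO against normoxia DMSO gave 0.13 ± 0.12 (limma adjusted p = 0.655). RefSeq lists the pseudogenes Ftl1-ps1, Ftl1-ps2, Ftl2-ps, Fth-ps2 and Fth-ps3, whose sequences resemble the ferritin chains, and how far the 2 ferritin probes also read them was not tested, so both ferritin values carry that uncertainty.

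Aco1 and Ireb2 encode the iron regulatory proteins, IRP1, which is a cytosolic aconitase when it carries an iron-sulfur cluster, and IRP2, which is degraded when iron is plentiful. Aco1 had log2 values of 7.42, 8.12 and 8.12 with BFA, 8.49, 8.76 and 8.30 with EHT-1864, 8.81, 8.51 and 8.53 in hypoxia DMSO, and 8.45, 8.47 and 8.46 in normoxia DMSO. All BFA arrays lay below all other arrays, and BFA array 1 stood apart from its own group on the low side. Aco1 fell with BFA against hypoxia DMSO, with a log2 change of -0.73 ± 0.19 (1.66-fold lower, limma adjusted p = 0.00582, from 0.000491 to 0.0554 over the alternatives). Against normoxia DMSO the change with BFA was -0.57 ± 0.19 (limma adjusted p = 0.0228), and without BFA array 1 it was -0.34 (limma adjusted p = 0.0819, in a range of 0.00419 to 0.199), and without any of the normoxia DMSO arrays it did not pass (limma adjusted p 0.0536 to 0.0566). BFA minus EHT-1864 was -0.62 ± 0.19 (limma adjusted p = 0.0181), and without BFA array 1 it was -0.39 (limma adjusted p = 0.0574, in a range of 0.00242 to 0.0750), while without EHT-1864 array 2 it was -0.50 (limma adjusted p = 0.0750). Neither EHT-1864 nor hypoxia DMSO differed from DMSO in hypoxia or normoxia by a change that passed, at -0.10 ± 0.19 for EHT-1864 in hypoxia (limma adjusted p = 0.710) and 0.16 ± 0.19 for hypoxia DMSO against normoxia DMSO (limma adjusted p = 0.754).

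Ireb2 had log2 values of 7.80, 8.24 and 7.78 with BFA, 8.00, 7.07 and 7.81 with EHT-1864, 8.36, 8.39 and 8.28 in hypoxia DMSO, and 8.32, 8.26 and 8.37 in normoxia DMSO. The DMSO groups overlapped, every EHT-1864 and BFA array lay below them, and EHT-1864 array 2 was far below its group. Ireb2 fell with EHT-1864 against hypoxia DMSO, with a log2 change of -0.72 ± 0.21 (1.65-fold lower, limma adjusted p = 0.0186), but without EHT-1864 array 2 the change was -0.44 (limma adjusted p = 0.0609, in a range of 0.00258 to 0.0609), and without hypoxia DMSO array 1 (limma adjusted p = 0.0526) or array 2 (limma adjusted p = 0.0538) the call was also lost. The EHT-1864 call against normoxia DMSO (-0.70 ± 0.21, limma adjusted p = 0.0272) was likewise lost without EHT-1864 array 2, at -0.42 (limma adjusted p = 0.0889, in a range of 0.00386 to 0.0889), and without any of the normoxia DMSO arrays (limma adjusted p 0.0606 to 0.0769). With BFA the change against hypoxia DMSO was -0.40 ± 0.21 and did not pass (limma adjusted p = 0.119). Over the alternatives it ranged from -0.55 to -0.099 (limma adjusted p 0.0293 to 0.694), and 2 of 21 called it. Those were the fits without BFA array 2 (-0.55, limma adjusted p = 0.0496) and without EHT-1864 array 2 (limma adjusted p = 0.0293). Hypoxia DMSO against normoxia DMSO gave 0.023 ± 0.21 (limma adjusted p = 0.977).

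**Figure D2:**
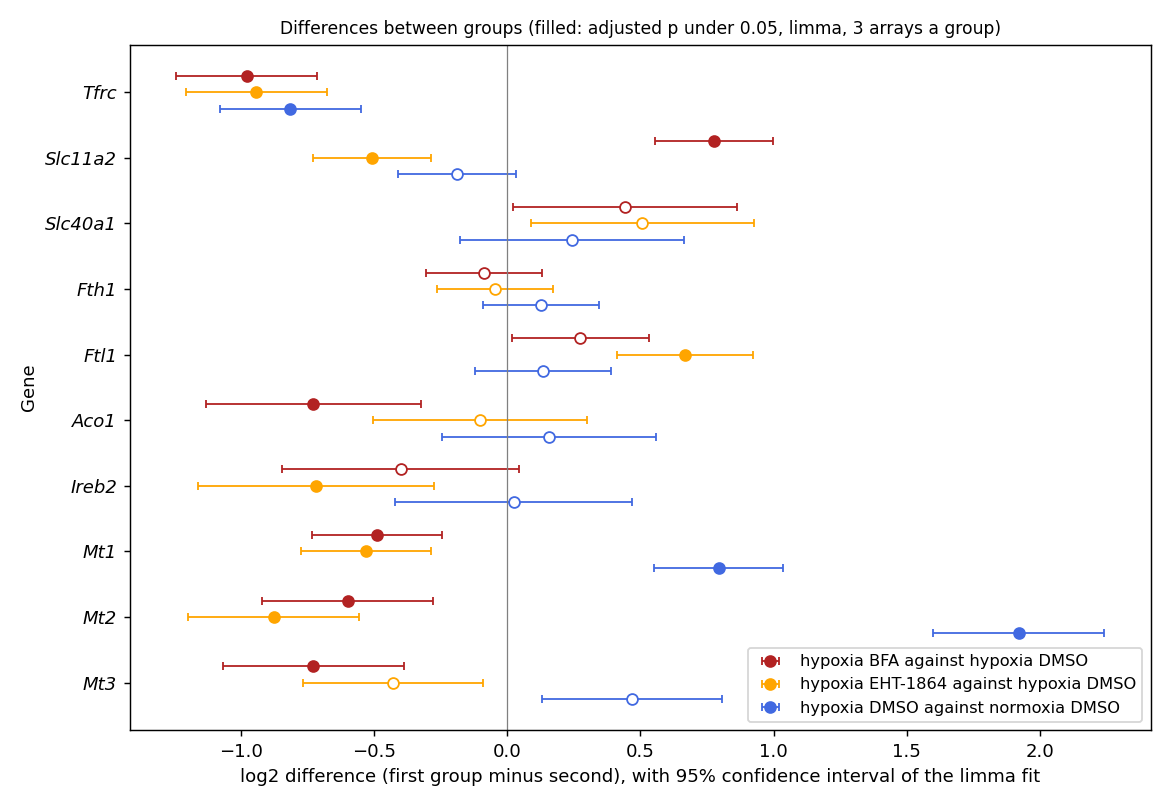
Log2 change of the 10 genes in the comparisons of hypoxia DMSO with normoxia DMSO and of each compound with hypoxia DMSO, with 95% intervals of the limma fit. Filled points passed an adjusted p of 0.05; both groups of every Slc40a1 point, and the BFA group of the Mt3 point, were below the floor. In hypoxia DMSO against normoxia DMSO, Mt2 and Mt1 are to the right of 0 and Tfrc to the left, and Slc11a2 is to the right with BFA and to the left with EHT-1864.

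The metallothioneins Mt1, Mt2 and Mt3 lie near each other on chromosome 8. The core of the metal response element, which MTF1 binds, is TGCRCNC, where R is A or G. A looser form, TGCNCNC, is searched here on both strands, so that C or T is also allowed there. The 250 bases before the annotated start of each gene's RefSeq window are shown with each match in capitals, as the levels of these genes are compared below. For Mt2 and Mt3 the RefSeq gene begins right after the stretch. For Mt1 it begins inside the stretch, most of which lies within the gene, so the Mt1 letters and positions are not like those of the others. The stretches are on the plus strand of build GRCm38.p6 at chr8:94178839-94179088 for Mt1, chr8:94172368-94172617 for Mt2 and chr8:94152357-94152606 for Mt3.
Mt1: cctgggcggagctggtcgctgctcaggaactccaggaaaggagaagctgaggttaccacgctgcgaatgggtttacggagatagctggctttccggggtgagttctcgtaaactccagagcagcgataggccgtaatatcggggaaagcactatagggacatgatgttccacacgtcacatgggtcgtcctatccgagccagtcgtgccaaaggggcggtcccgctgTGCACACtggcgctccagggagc
Mt2: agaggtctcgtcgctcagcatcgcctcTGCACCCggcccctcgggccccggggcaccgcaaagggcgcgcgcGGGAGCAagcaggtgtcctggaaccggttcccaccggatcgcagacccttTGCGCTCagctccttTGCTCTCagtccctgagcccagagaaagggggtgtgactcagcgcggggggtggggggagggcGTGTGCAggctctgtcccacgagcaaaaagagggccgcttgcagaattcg
Mt3: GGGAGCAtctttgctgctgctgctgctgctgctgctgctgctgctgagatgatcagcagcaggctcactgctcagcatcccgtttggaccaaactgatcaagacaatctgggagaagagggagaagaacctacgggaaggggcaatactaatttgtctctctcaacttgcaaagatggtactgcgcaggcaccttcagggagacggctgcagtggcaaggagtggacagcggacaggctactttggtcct
Over the whole windows of 300 bases, which add the 50 bases after each start, Mt1 held 3 matches, Mt2 held 6 and Mt3 held 3. At least 1 match is held by 51.0% of all windows, at least 3 by 7.10% and at least 6 by 0.225%. These are counts of letters in the looser form, not of binding sites. The matches TGCTCTC and GGGAGCA in Mt2, and GGGAGCA and GAGAGCA in Mt3, have T where the stricter core has A or G. Of these, GGGAGCA and GAGAGCA are read on the other strand. A core of the hypoxia response element, ACGTG or GCGTG, overlaps 1 of the Mt2 matches. Mt1 and Mt2 each hold 2 of those cores, 1 of the Mt2 cores lying after the start, and 20.6% of all windows hold at least 2. The sequences are those of the reference genome, not of strain FVB-NJ, and letters outside the windows were not read.

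Mt2 encodes a metallothionein found in most tissues. It had log2 values of 11.82, 11.57 and 11.67 with BFA, 11.51, 11.16 and 11.56 with EHT-1864, 12.02, 12.45 and 12.39 in hypoxia DMSO, and 10.38, 10.40 and 10.31 in normoxia DMSO. Every hypoxia DMSO array lay above every BFA array, every BFA array lay above every EHT-1864 array, and every EHT-1864 array lay above normoxia DMSO. In hypoxia DMSO, Mt2 rose by 1.92 ± 0.15 relative to normoxia DMSO (3.79-fold, limma adjusted p = 5.68e-06). With BFA it was lower than in hypoxia DMSO, at -0.60 ± 0.15 (1.52-fold lower, limma adjusted p = 0.00481), and with EHT-1864 it was lower by -0.88 ± 0.15 (1.84-fold lower, limma adjusted p = 0.000774). Both compound groups stayed above normoxia DMSO, 2.50-fold with BFA (limma adjusted p = 1.04e-05) and 2.06-fold with EHT-1864 (limma adjusted p = 0.000255). The compounds did not differ by a change that passed (0.28 ± 0.15, 95% interval -0.043 to 0.60, limma adjusted p = 0.167, from 0.0199 to 0.465 over the alternatives, of which 2 of 21 called it).

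Mt1 encodes the other widely expressed metallothionein. Its log2 values were 12.20, 12.28 and 12.30 with BFA, 12.27, 12.11 and 12.27 with EHT-1864, 12.62, 12.89 and 12.74 in hypoxia DMSO, and 11.95, 11.98 and 11.94 in normoxia DMSO. The compound groups overlapped, all their arrays lay below hypoxia DMSO, and all lay above normoxia DMSO. In hypoxia DMSO, Mt1 rose by 0.79 ± 0.11 relative to normoxia DMSO (1.73-fold, limma adjusted p = 0.00155). Mt1 was lower with BFA than in hypoxia DMSO by -0.49 ± 0.11 (1.40-fold lower, limma adjusted p = 0.00301) and lower with EHT-1864 by -0.53 ± 0.11 (1.44-fold lower, limma adjusted p = 0.00353). Between the compounds the difference was 0.040 (95% interval -0.20 to 0.28, limma adjusted p = 0.815). BFA stayed above normoxia DMSO by 0.30 ± 0.11 (limma adjusted p = 0.0411, from 0.000398 to 0.0976 over the alternatives). That call was lost without BFA array 2 or 3, EHT-1864 array 1 or 3, hypoxia DMSO array 3 or any of the normoxia DMSO arrays (limma adjusted p 0.0505 to 0.0976). EHT-1864 lay above normoxia DMSO by 0.26 ± 0.11 without passing (limma adjusted p = 0.118). The rise of Mt1 in hypoxia DMSO was smaller than that of Mt2, a difference that was not itself tested, and the probe of Mt1 was near the top of the array, ranked 10, 1 and 6 of all probes on the hypoxia DMSO arrays, and how far saturation limited its rise was not tested.

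Mt3 encodes a metallothionein of the brain, known there as growth inhibitory factor, and it was dim. Its log2 values were 6.22, 6.03 and 6.35 with BFA, 6.44, 6.82 and 6.24 with EHT-1864, 7.13, 6.87 and 6.79 in hypoxia DMSO, and 6.49, 6.42 and 6.47 in normoxia DMSO. The BFA arrays were all below their own floors, the hypoxia DMSO arrays lay above the normoxia DMSO arrays, and the EHT-1864 arrays overlapped both DMSO groups. Mt3 was at least 1.36-fold lower with BFA than in hypoxia DMSO (limma adjusted p = 0.00194, from 0.000574 to 0.0729 over the alternatives). The change in hypoxia DMSO against normoxia DMSO was 0.47 ± 0.16 and did not pass (limma adjusted p = 0.152), although with array weights it was 0.46 with a limma adjusted p of 0.0311, in a range of 0.0311 to 0.417. With EHT-1864 the change against hypoxia DMSO was -0.43 ± 0.16 (limma adjusted p = 0.0538, from 0.0141 to 0.476 over the alternatives), and it passed without EHT-1864 array 2 (-0.59, limma adjusted p = 0.0141) or without BFA array 2 (limma adjusted p = 0.0477).

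For each of Tfrc, Fth1 and Mt1, the 3 genes whose 4 group means were closest, after each gene was centred on its own mean, were taken from 9802 candidates with a named probe above the floor on at least 3 arrays. The closest to Tfrc were Ppif, at a root mean square difference of 0.048 log2 units, Cenpi at 0.090 and Dna2 at 0.11. Alas1 at 0.021, Polr3b at 0.022 and Map4 at 0.022 were closest to Fth1, and because Fth1 was nearly flat this says mainly that they were flat as well. Nfat5 at 0.041, Fbxl20 at 0.047 and Zfp949 at 0.051 were closest to Mt1. Mt2 stood 5360th by this measure, 0.44 from Mt1. The measure reads the size of changes as well as their pattern, and the rise of Mt2 in hypoxia DMSO was larger. The order of the 4 group means was the same in both genes: hypoxia DMSO, BFA, EHT-1864, normoxia DMSO. However, the step from BFA to EHT-1864 passed in neither gene (limma adjusted p = 0.815 in Mt1 and 0.167 in Mt2). In Mt1 that step changed sign without EHT-1864 array 2 (-0.015), and the step from EHT-1864 to normoxia DMSO did not pass (limma adjusted p = 0.118).

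Of the other genes of iron and metal handling, 84 of 90 were measured, and the others were not analysed here. Heme is the largest user of iron, and its breakdown by heme oxygenase releases iron again. Of 16 measured heme genes, 1 rose and none fell in hypoxia DMSO against normoxia DMSO. This was 6.25% of them, while 2.67% of all probes were called, and the median change was 0.098, against -0.033 over all probes. The 1 that rose was Hmox1, the inducible heme oxygenase, whose log2 values were 11.72, 11.69 and 11.73 with BFA, 10.29, 9.89 and 10.29 with EHT-1864, 9.77, 9.75 and 9.82 in hypoxia DMSO, and 7.90, 7.90 and 7.79 in normoxia DMSO. The 4 groups did not overlap, with BFA on top and normoxia DMSO at the bottom. Hmox1 rose by 1.92 ± 0.13 in hypoxia DMSO against normoxia DMSO (3.78-fold, limma adjusted p = 1.07e-06), and BFA raised it by another 1.93 ± 0.13 against hypoxia DMSO (limma adjusted p = 9.64e-08). BFA stood 1.56 ± 0.13 above EHT-1864 (limma adjusted p = 8.46e-07). Hmox1 and Mt2 both rose in hypoxia DMSO, and under BFA Hmox1 rose further while Mt2 fell.

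Under BFA, 3 of the 16 heme genes rose and 5 fell against hypoxia DMSO, 8 of 16 in all or 50.0%, against 50.7% of all probes, with a median change of -0.14, against 0.11 over all probes. Beside the genes named by rule, the third that rose was Urod, and Hmox2, Slc48a1, Flvcr1 and Slc46a1 fell, the last pair below the floor with BFA, all named after their values were seen. Cpox, the coproporphyrinogen oxidase of heme synthesis, rose by 1.70 ± 0.18 (limma adjusted p = 8.99e-06), and Blvra, which reduces biliverdin, was at least 1.44-fold lower (limma adjusted p = 2.88e-07). With EHT-1864, 2 rose and 4 fell against hypoxia DMSO, 37.5% of the 16, while 30.5% of all probes were called, 13.0% higher and 17.4% lower. The median change was -0.15, against 0.063 over all probes. Alad and Hmox1, which rose by 0.40 and 0.38, and Cpox, which fell with -0.69, are named after their values were seen. Fech, the ferrochelatase that inserts iron into heme, fell with a change of -0.61 ± 0.12 (limma adjusted p = 0.00268), and the endosomal heme transporter Slc48a1 fell with -0.85 ± 0.20 (limma adjusted p = 0.00590). Flvcr1, a heme exporter, was at least 1.16-fold lower with EHT-1864 than in hypoxia DMSO (limma adjusted p = 0.000677).

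None of the 14 genes of transferrin uptake and endosomal release passed the limma test in hypoxia DMSO against normoxia DMSO, while 2.67% of all probes were called. Of the 14, 1 had an unadjusted p under 0.05, and the median change was -0.099, against -0.033 over all probes. With BFA against hypoxia DMSO 6 rose and 2 fell, but 4 of these 8 were below the floor in both groups, and the median change was 0.40, against 0.11 over all probes, of which 50.7% were called. That count of 8 was 5 without hypoxia DMSO array 1 or BFA array 1, and 3 with either filter on dim probes. Slc22a17, a receptor for the siderophore-binding protein lipocalin 2, fell with BFA by a log2 change of -1.43 ± 0.13 against hypoxia DMSO (limma adjusted p = 1.48e-06). Its ligand Lcn2 exceeded the floor on 1 of the 3 BFA arrays and on no hypoxia DMSO array, so that no fold is given. With EHT-1864 against hypoxia DMSO, Scara5 rose while below the floor in both groups, and Slc22a17 fell with -0.45 ± 0.13 (limma adjusted p = 0.0170), a call lost without hypoxia DMSO array 1 (limma adjusted p = 0.0692) or EHT-1864 array 3 (limma adjusted p = 0.0630). Steap3, the ferrireductase of the endosome, was below the floor with BFA, and its bound gave no fold against hypoxia DMSO.

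Of 12 genes of iron export, chaperones and ferritin turnover, none passed the limma test in hypoxia DMSO against normoxia DMSO, while 2.67% of all probes were called. Of the 12, 2 had an unadjusted p under 0.05, and the median change was -0.066, against -0.033 over all probes. With BFA against hypoxia DMSO 6 rose and 2 fell, 2 of the 8 below the floor in both groups, and the median change was 0.33 against 0.11 over all probes, of which 50.7% were called. That count of 8 was 3 without hypoxia DMSO array 1, 5 without hypoxia DMSO array 2 or array 3, and 4 without BFA array 1 or array 2. Fbxl5, the iron-sensing ligase subunit that targets IRP2 for breakdown, was at least 1.43-fold lower with BFA than in hypoxia DMSO (limma adjusted p = 0.000402). Hamp2, a hepcidin paralogue, rose with BFA by 0.58 ± 0.17 (limma adjusted p = 0.0127), a call lost without hypoxia DMSO array 1 (0.43, limma adjusted p = 0.0637). With EHT-1864, 3 rose and none fell against hypoxia DMSO (median change 0.21), while 30.5% of all probes were called, and 2 of the 3, Bmp6 and Ftmt, were below the floor in both groups. Without hypoxia DMSO array 3 that count was 1. The third, Pcbp1, an iron chaperone that loads ferritin, rose by 0.46 ± 0.12 (limma adjusted p = 0.0129), a call lost without hypoxia DMSO array 3 (0.40, limma adjusted p = 0.0579).

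None of the 17 measured genes of iron-sulfur cluster assembly passed the limma test in hypoxia DMSO against normoxia DMSO, while 2.67% of all probes were called. The median change was -0.23, against -0.033 over all probes. Of the 17, 7 had an unadjusted p under 0.05 there. In that comparison 7 of 21 alternatives called 1 to 3 genes, among them the fit without BFA array 1, with 1. With BFA 5 rose and 3 fell against hypoxia DMSO, 47.1% of the 17, while 50.7% of all probes were called, and the median change was -0.037, against 0.11 over all probes. Isca1, an assembly factor, rose by 0.87 ± 0.11 (limma adjusted p = 2.66e-05), Iscu, the assembly scaffold, rose by 0.73 ± 0.11 (limma adjusted p = 0.00016), and Cisd3, a mitochondrial iron-sulfur protein, was lower (limma adjusted p = 7.07e-05), with 1 of 3 BFA arrays above the floor, so that its size is not given. The other genes called were Cisd2, Nfu1 and Ciao1, which rose, and Nfs1 and Lyrm4, which fell, named after their values were seen. With EHT-1864 Cisd1, a protein of the outer mitochondrial membrane, passed against hypoxia DMSO, at 0.45 ± 0.12 (limma adjusted p = 0.0125). It was the 1 gene of the list called there, 5.88% of the 17, while 30.5% of all probes were called. More were called by 11 of 21 alternatives, up to 5 after quantile normalization, with 3 without BFA array 1 and 2 without BFA array 2 or array 3.

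Of 25 genes of zinc and copper handling, the genes closest in function to the metallothioneins, 1 rose and none fell in hypoxia DMSO against normoxia DMSO. This was 4% of them, while 2.67% of all probes were called. The gene that rose was the copper transporter Atp7b, below the floor on all normoxia DMSO arrays and without a bound above 1. Its call (limma adjusted p = 0.0228) was lost without hypoxia DMSO array 2 or 3 or normoxia DMSO array 2 or 3 (limma adjusted p 0.0852 to 0.106). With BFA 7 rose and 8 fell against hypoxia DMSO, and with EHT-1864 13 fell and 1, Mt4, rose while below the floor in both groups. These are 60.0% of the 25 with BFA and 56.0% with EHT-1864, while 50.7% and 30.5% of all probes were called. The median change was 0.00049 with BFA and -0.41 with EHT-1864, against 0.11 and 0.063 over all probes. The zinc importer Slc39a10 fell with BFA by a change of -1.42 ± 0.11 against hypoxia DMSO (limma adjusted p = 5.85e-07), and the copper-handling protein Commd1 was at least 1.59-fold lower (limma adjusted p = 8.41e-05). With EHT-1864, Slc39a9, another zinc transporter, fell with -1.34 ± 0.17 (limma adjusted p = 9.66e-05), and the copper transporter Slc31a2 was lower (limma adjusted p = 0.000322), with 1 of 3 EHT-1864 arrays above the floor, so that its size is not given. The zinc transporters Slc30a5, Slc30a6, Slc30a7 and Slc30a9, named after their values were seen, also fell with EHT-1864, by changes of -0.78, -0.69, -0.58 and -0.77. BFA stood above EHT-1864 for Slc39a13 by 1.69 ± 0.17 (limma adjusted p = 4.34e-06) and for Slc30a5 by 1.51 ± 0.16 (limma adjusted p = 1.04e-05), zinc transporters of the Golgi and secretory pathway. Between the compounds, 10 of the 25 genes were higher and 3 lower with BFA, while 16.9% of all probes were higher and 19.6% lower.

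**Figure D3:**
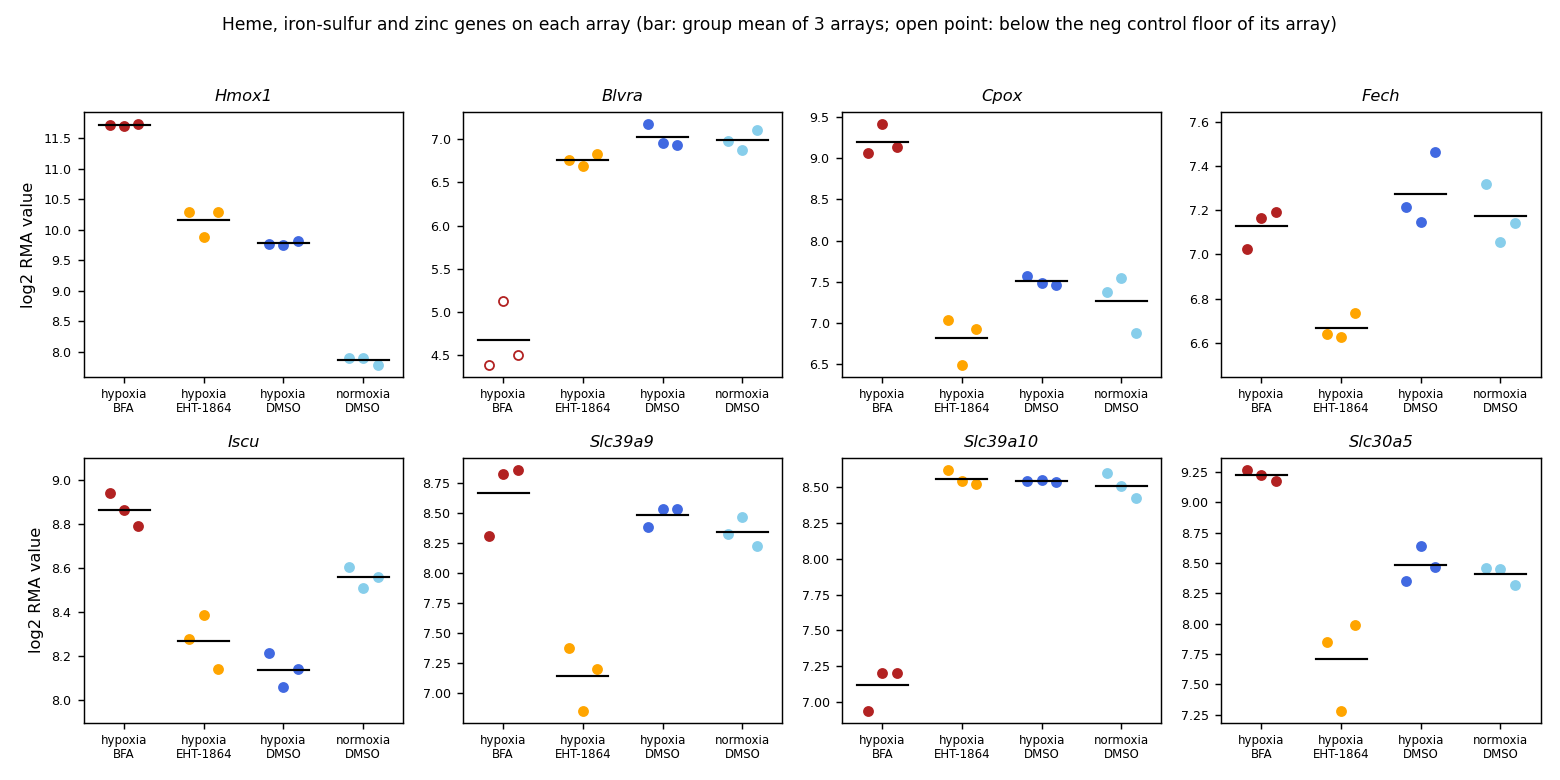
Log2 signal on each of the 12 arrays for genes named from the other lists, with bars at the means of 3 and open points below the floor of their array; each panel has its own scale. Hmox1, Cpox and Slc30a5 are highest with BFA, Fech and Slc39a9 are lowest with EHT-1864, and Slc39a10 and Blvra are lowest with BFA.

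The remaining comparisons set the compounds against each other and against normoxia DMSO. Between BFA and EHT-1864, 3 of the 10 genes were called, 1 higher and 2 lower with BFA, while 36.5% of all probes were called, 16.9% higher and 19.6% lower. Those were Slc11a2, higher with BFA, and Ftl1 and Aco1, lower with BFA, whereas Tfrc, Fth1, Mt1 and Mt2 did not pass. With BFA against normoxia DMSO, 7 of the 10 were called, 5 higher and 2 lower, while 47.0% of all probes were called, 23.0% higher and 24.0% lower. Slc40a1, below the floor, was 1 of the 7. With EHT-1864 against normoxia DMSO, 6 of the 10 were called, 3 higher and 3 lower, while 22.4% of all probes were called, 8.10% higher and 14.3% lower, and Slc40a1 was again among the 6. Slc11a2 stood 1.50-fold above normoxia DMSO with BFA (limma adjusted p = 0.000436) and 1.62-fold below it with EHT-1864 (limma adjusted p = 0.00033). The median log2 change over the 10 genes was -0.45 with BFA and -0.47 with EHT-1864 against hypoxia DMSO, and 0.14 in hypoxia DMSO against normoxia DMSO, where the medians over all probes were 0.11, 0.063 and -0.033.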

How the data were processed

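RNA of 12 cultures was read on Clarion S mouse arrays, 3 arrays per group. The sample labels gave each array its group and number. The authors deposited log2 values, 1 per transcript cluster and array, made by RMA in Affymetrix Expression Console per the submitters' processing notes. RMA corrects background and quantile-normalizes the arrays together, so they cannot show a change in a cell's total RNA. The deposited values still differed in spread between arrays. Their SD over probes was 2.22 to 2.32 with BFA, 2.38 to 2.44 with EHT-1864, 2.50 to 2.52 in hypoxia DMSO and 2.46 to 2.51 in normoxia DMSO. The genome build of the array was not given in the sources used here. Gene coordinates are therefore left out, and promoter windows are those of RefSeq on GRCm38.p6 (8 of the 10 genes had one, not Slc40a1 and Slc11a2). Of 28846 rows, 6640 were controls, and the other 22206 probes were all tested. All 12 arrays were fitted together with limma 3.58.1 in R 4.3.3 (lmFit and eBayes), for 6 comparisons, with Benjamini-Hochberg adjustment over all probes of a comparison. Where a gene stayed under the floor on every array of 1 group, its fold is a bound: the brighter group's mean minus the dim group's mean, in which each array counts at its floor or at its own value, whichever is higher. With both groups under the floor, no fold is stated. The p values measure the spread between arrays of a group. The series text speaks of 3 independent cultures, but whether same-numbered arrays share a culture is not said, so part of this spread may be technical. The number of arrays limits the precision.

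The members and the gene lists were chosen with earlier results of these data known, so they are a description and not independent evidence. All 10 genes are named. From each of 5 lists, the genes eligible for naming were, per comparison, the 3 with the smallest adjusted p past 0.05 whose 2 groups did not overlap, and not every eligible gene is described. Genes of the list with no matching probe were not analysed here. The alternatives were another quantile normalization, subtraction of array medians, 3 filters on low values (1 chosen after seeing the data), a trended and robust variance, array weights, the 6 arrays of a comparison alone, a replicate block and leaving out each array.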

Additional observations from a re-analysis of the deposited data

How the results depend on the processing

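Limits: each group held 3 arrays, the BFA dose was not settled, and values near the floor, above all with BFA, have no reliable size. Of 60 log2 changes of the 10 genes, 31 were called, and 20 of these stayed called under every alternative run; none of the 31 changed sign. Over 1248 alternative values, 1158 kept direction and side of the threshold, 39 lost and 33 gained a call, and 18 changed sign, all of changes that were not called. Taking the mean of all probes of a gene leaves the log2 values of the 10 genes as they are, since each has 1 probe. Only the count of called genes was taken under that alternative, not the adjusted p of each gene. Among 67 changes of named list genes, 11 lost their call under some alternative and none changed sign. Of 630 alternative counts of called list genes, 88 moved by over 1.5 times.

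The array numbers did not pair the samples: over 18 same-numbered pairs the correlation of deviations ran from -0.18 to 0.17, with 1 over 0.1, and 3 of 12 arrays correlated best with their own number. With the replicate block, Mt1 in BFA against normoxia DMSO had a limma adjusted p of 0.0625 and lost its call; it ranged from 0.000398 to 0.0976 over all alternatives.

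The count of probes called in hypoxia DMSO against normoxia DMSO, 593, was 1264 with a filter of log2 6 or more on 3 or more arrays, 1221 with a trended and robust variance, 2258 with array weights, 1234 with only the 6 arrays compared and 1247 with the floor filter chosen after seeing the data. Leaving out arrays gave 254 to 898. In BFA against hypoxia DMSO the count, 11269, was 7215 with the log2 filter and 7423 with the floor filter. Both filters left fewer probes to test, and the share called among those was not taken. With only the 6 arrays compared, 1 of the 10 genes, not 3, was called between BFA and EHT-1864. The share of higher calls in EHT-1864 against normoxia DMSO was 36.2%, and 46.9% after quantile normalization. The majority of calls turned from lower to higher in EHT-1864 against hypoxia DMSO (42.8% higher, 51.9% after median subtraction), in BFA against normoxia DMSO (49.0%, then 54.0% after median subtraction) and in BFA against EHT-1864 (46.4%, then 50.1% after quantile normalization).

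Changes of sign, none of them called, were as follows. After quantile normalization, Fth1 was 0.079 in BFA against hypoxia DMSO and 0.19 in BFA against EHT-1864, Aco1 was 0.020 in EHT-1864 against hypoxia DMSO, and Tfrc was 0.061 in BFA against EHT-1864. After median subtraction, Ireb2 was -0.0047 in hypoxia DMSO against normoxia DMSO and Fth1 was 0.0061 in EHT-1864 against hypoxia DMSO. With array weights, Aco1 was -0.0046 and Mt3 -0.024 in EHT-1864 against normoxia DMSO. Leaving out arrays gave -0.0058 to 0.057 for Ireb2 in hypoxia DMSO against normoxia DMSO, and -0.22 to 0.0047 for Aco1 in EHT-1864 against hypoxia DMSO. In BFA against EHT-1864 it gave -0.13 to 0.048 for Tfrc, -0.22 to 0.15 for Slc40a1 and -0.015 to 0.071 for Mt1. In EHT-1864 against normoxia DMSO it gave -0.068 to 0.16 for Aco1 and -0.12 to 0.17 for Mt3. The cause was not tested.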
